A study of Saccharomyces cerevisiae with 12 samples.

Results

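The genes described here are the 9 budding yeast genes SSA1, SSA2, SSA3, SSA4, SSB1, SSB2, HSP82, HSC82 and SSE1, which encode the cytosolic Hsp70 and Hsp90 chaperones and an Hsp110 partner. They were taken by name from a RefSeq table of assembly R64, which holds 6002 nuclear coding genes, and all 9 were found there. They were divided by their known expression into 5 constitutive genes (SSA1, SSA2, SSB1, SSB2 and HSC82) and 3 stress-induced genes (SSA3, SSA4 and HSP82), with SSE1 in neither class. The question was where Scc2, which together with Scc4 loads the cohesin ring onto chromosomes, was found at these genes with and without auxin.

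Scc2 was mapped by chromatin immunoprecipitation and sequencing. All cultures were MATa cells of strain W303 in which Scc2 carried a Myc tag (SCC2-13MYC), Med14 carried a degron and epitope tag (MED14-AID*-6FLAG), and the F-box protein OsTIR1 was placed at ura3-1 under the ADH1 promoter. Med14 is a scaffold subunit of Mediator, the coactivator of RNA polymerase II, and in the presence of auxin OsTIR1 marks a degron-tagged protein for destruction. The 3 auxin cultures received 1 mM auxin and the 3 others were labelled as untreated. The labels' protocols describe arrest with alpha-factor, release into nocodazole for 2 hours, addition of fission yeast with a Myc tag on Mis4 for calibration, and fixation for 30 minutes. The protocol text is the same for all samples, auxin included, so the groups rest on the titles and treatment labels. Both groups carry the degron and OsTIR1, so that an effect of auxin itself and one of Med14 loss cannot be told apart. No heat shock is named in the labels, and neither Med14 levels nor the cell-cycle stage can be read from peak lists.

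Hsp70 proteins bind and release exposed stretches of unfolded clients in cycles of ATP hydrolysis, helped by J-domain proteins and by nucleotide exchange factors. Hsp90 acts later, on clients that are close to their folded state, such as kinases and receptors. In yeast the Ssa proteins are the general cytosolic Hsp70s, the Ssb proteins sit at the ribosome and receive nascent chains, and Hsc82 and Hsp82 are the cytosolic Hsp90 pair. SSA1, SSA2, SSB1, SSB2 and HSC82 are strongly transcribed in growing cells. SSA3, SSA4 and HSP82 are known for their induction by heat through the transcription factor Hsf1, and SSA3 and SSA4 are nearly silent in unstressed cells.

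The 6 immunoprecipitates each had 1 list of peaks, and the 6 total chromatin samples came without one. There were 964, 1324 and 1569 peaks in the lists with auxin and 2115, 2111 and 1502 in those without. These peaks covered 555 to 918 kb of the nuclear genome with auxin and 1105 to 1390 kb without. The third list without auxin also differed from its group in the median fold enrichment given by the peak caller. That was 2.54, against 1.70 and 1.67 in lists 1 and 2 and 2.57 to 3.93 with auxin. This list departs from its group at SSA3 and SSE1 below, and the cause was not tested. A list gives places where a peak was called and not an amount of Scc2, and the depth behind each list is unknown. The unit used below is coverage, the percent of the bases of a window that lay under peaks in a list. Averaged over the 6002 coding genes, coverage of the coding span was 13.4%, 13.2% and 9.64% in the lists without auxin and 3.86%, 5.63% and 7.42% in those with auxin. The lists with auxin thus covered less coding sequence in general, and the values of the 9 genes stand beside that.

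The 5 constitutive genes each lay for the most part under a single broad peak in all 3 lists without auxin, which at SSA1 had its summit in the neighbouring tRNA gene, whereas the 3 stress-induced genes had small peaks or no peak. With auxin the broad peaks at SSB1, SSB2 and HSC82 were replaced by short ones or were absent, whereas SSA1 and SSA2 kept a broad peak in part of the auxin lists. At SSA1 the third auxin list held 1 unbroken peak of 2156 bp, against 2026 to 2429 bp without auxin. Mean coverage of the coding span over the 5 constitutive genes was 93.0%, 93.0% and 95.3% without auxin and 21.0%, 44.5% and 54.2% with auxin, or 93.8 ± 1.32% against 39.9 ± 17.1% (SD, n = 3 lists each). Over the 3 stress-induced genes it was 5.90%, 5.35% and 15.3% without and 7.13%, 3.62% and 3.52% with auxin, or 8.84 ± 5.57% against 4.76 ± 2.06% (SD, n = 3 each). The mean of the constitutive class thus differed between groups with no overlap of the lists, and that of the stress-induced class overlapped. The mean over all 6002 coding genes did not overlap between groups either. Single genes could depart from their class, as SSA1 overlapped between groups and HSP82 did not. The gap between the classes, constitutive minus stress-induced, was 87.1, 87.6 and 80.0 percentage points without auxin and 13.8, 40.9 and 50.6 with auxin, and it was above 0 in all 6 lists. These class means are descriptions of genes chosen with earlier results in view and carry no test. The difference of the stress-induced class, -4.08 percentage points, rested largely on the third list without auxin and was -0.867 without it. With 964 peaks in every list, the number in the shortest list, it turned to 0.774. With each peak reduced to 100 bp on either side of its summit, the difference of the constitutive class went from -53.9 to 2.97 percentage points. That setting counts summits and removes width by construction, and the summits without auxin at SSA1 lie in the tRNA gene. With a −log10 q of at least 10, no auxin list held a peak over SSB1, SSB2 or HSC82. Leaving out SSA1, the constitutive means were 95.5 ± 1.12% and 33.1 ± 17.5% (SD, n = 3 each).

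**Figure D1:**
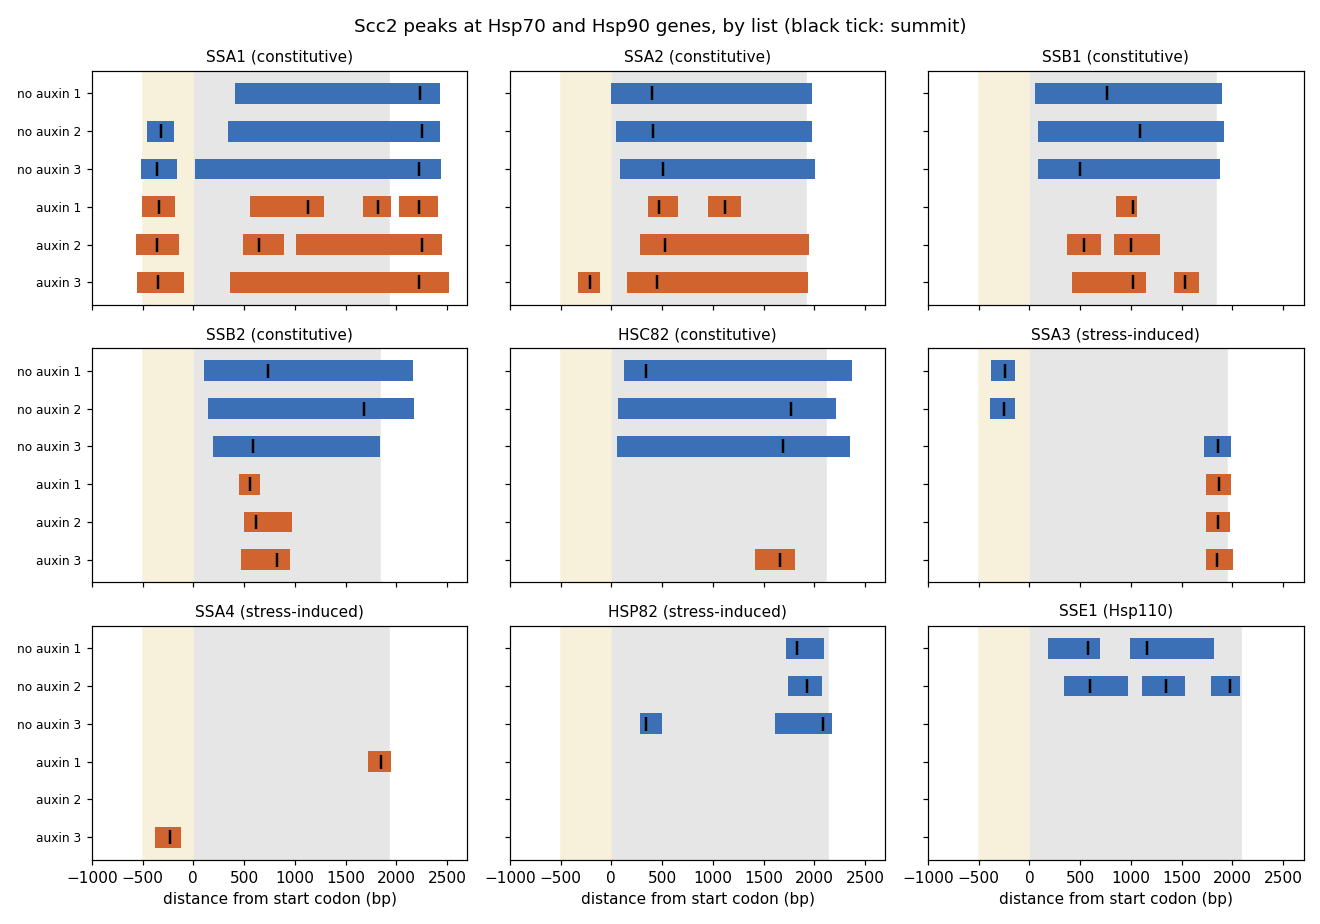
Scc2 peaks at each of the 9 genes, 1 row per list, drawn from the start codon (0) in the direction of transcription, for peaks within 500 bp of the coding span. Blue bars are peaks without auxin, orange bars peaks with auxin, black ticks summits, the grey area the coding span and the pale area the 500 bp before it; the constitutive genes have 1 broad blue bar in each list, and HSC82 has 1 orange bar in 1 of 3 lists.

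Coverage of the coding span was lower in each auxin list than in each list without auxin at 5 of the 9 genes, namely SSA2, SSB1, SSB2, HSC82 and HSP82. The same held for 599 of all 6002 coding genes, or 9.98%. Higher coverage in each auxin list was found at 0 of 9 members and at 1.62% of all coding genes. All 9 members had a coding peak in at least 1 list, so that 0 of 9 lacked one, against 66.9% of all coding genes. A gene without a coding peak cannot be lower, so the 599 genes all lie among the 1988 with a coding peak in any list. Of these 1988 genes, 332 had a coding peak in all 6 lists. The shares of all coding genes are thus low in part because most of them had no coding peak. SSA1, SSA2, SSB1 and SSB2 had a peak over the coding span in all 6 lists (4 of 9, against 5.53% of all coding genes), and HSP82 alone had one in all 3 lists without auxin and in 0 of 3 with it (1 of 9, against 5.56%). The median difference in coverage, auxin minus no auxin, was -27.9 percentage points over the 9 genes, 0 over all 6002 coding genes, and -12.3 over the 1988 coding genes with a coding peak in any list. An exact two-sided permutation test over the 6 lists gave p = 0.1 for each of the 5 genes, the lowest that can be reached with 3 lists in each group. Any gene whose groups do not overlap gets this value, so it adds nothing to the count of 5. Adjusted by Benjamini-Hochberg over all 6002 coding genes, this exact permutation test gave p = 0.862 for these 5, and no gene can pass 0.05 in this design.

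**Figure D2:**
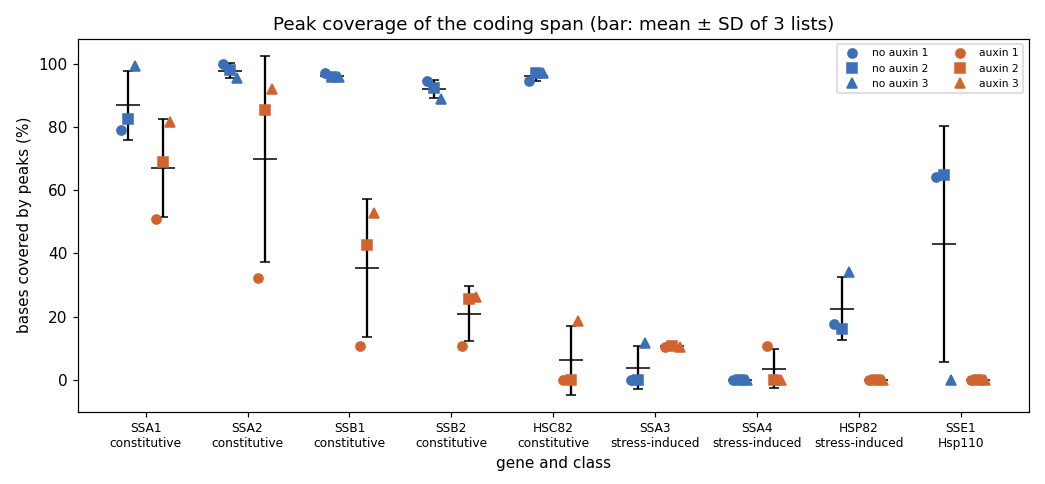
Percent of the coding span under peaks (vertical axis) for each gene (horizontal axis), 1 point per list, with circles, squares and triangles for replicates 1, 2 and 3, blue without and orange with auxin, and black bars for the mean ± SD of 3 lists. SSB1, SSB2 and HSC82 have all 3 blue points at 88.9% or more and all 3 orange points at 52.7% or less.

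The SSB genes, whose products bind nascent chains at the ribosome, showed the same change of shape. SSB1 (YDL229W, chromosome IV, 44065 to 45906) had coverage of 97.1%, 95.6% and 95.7% without auxin and of 10.9%, 42.8% and 52.7% with auxin. Its groups did not overlap, with means of 96.1 ± 0.862% and 35.4 ± 21.8% (SD, n = 3 each) and a difference of -60.7 percentage points. SSB2 (YNL209W, chromosome XIV, 252059 to 253900) had coverage of 94.5%, 92.2% and 88.9% without auxin and of 10.9%, 25.7% and 26.1% with auxin. Its groups did not overlap either, at 91.9 ± 2.84% and 20.9 ± 8.70% (SD, n = 3 each), a difference of -71.0 points.

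Without auxin the peak at SSB1 was 1794 to 1849 bp wide and began 53 to 81 bp after the start of the coding sequence, and that at SSB2 was 1637 to 2061 bp wide and began at 101 to 197 bp. With auxin, 5 peaks of 200 to 721 bp lay over SSB1 and 3 peaks of 200 to 481 bp over SSB2. What remained lay inside the genes. The stretch covered in all 3 auxin lists ran from 857 to 1056 bp at SSB1 and from 497 to 652 bp at SSB2. With the coding span divided into 3 parts of equal length, the last part of SSB2 had coverage of 98.7% to 100% in the lists without auxin and 0% in each auxin list. At SSB1 the last part had 100% coverage in all lists lacking auxin, and 0%, 10.3% and 40.6% with auxin. The fold enrichment that the authors' peak caller gave placed the SSB peaks above 68.0% to 85.8% of the peaks of their own list without auxin, and above 1.36% to 25.5% with auxin. The auxin peaks were thus among the weaker ones in their lists, and with 964 peaks in every list neither gene had a coding peak in auxin lists 2 and 3. SSB1 and SSB2 are near-identical copies, so reads can be placed at either gene, and their peaks are uncertain as separate observations.

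HSC82 (YMR186W, chromosome XIII, 632355 to 634472), the constitutive Hsp90 gene, showed the largest difference in coverage among the 9 genes. Coverage of its coding span was 94.3%, 96.9% and 97.2% without auxin and 0%, 0% and 18.7% with auxin. The groups did not overlap, at 96.1 ± 1.56% and 6.25 ± 10.8% (SD, n = 3 each), a difference of -89.9 percentage points. Without auxin the peaks were 2150 to 2292 bp wide, began 60 to 120 bp after the start of the coding sequence and ended 98 to 254 bp past its end. In 2 of these 3 lists they reached the convergent neighbour YMR187C. With auxin the first and middle parts had no peak in any list, and the 1 peak that was called, in the third list, spanned 1416 to 1812 bp with its summit at 1659 bp. That summit lay close to those of lists 2 and 3 without auxin, at 1771 and 1689 bp, while the first had its summit at 340 bp.

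HSP82 (YPL240C, chromosome XVI, 96496 to 98625), the heat-induced partner of HSC82, had a much smaller domain. Its coverage was 17.7%, 16.1% and 34.1% without auxin and 0% in each auxin list, or 22.6 ± 9.97% (SD, n = 3) against 0%. The groups did not overlap. The peaks lay at the end of the gene, where the stretch covered in all 3 lists without auxin ran from 1737 to 2078 bp of a coding span of 2130 bp. The third list held another, weak peak from 283 to 493 bp. The −log10 q of the 4 peaks was 3.67 to 11.2, against 24.2 to 28.2 for the peaks at HSC82 without auxin. With 964 peaks in every list, or with a −log10 q of at least 5 or 10, the groups overlapped at HSP82, and the number of genes whose coverage was lower in each auxin list went from 5 to 4. HSC82 and HSP82 are near-identical over most of their coding sequence, and reads from shared stretches can be placed at either gene.

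SSA2 (YLL024C, chromosome XII, 95566 to 97485), a general cytosolic Hsp70 of growing cells, kept most of its domain in 2 of 3 auxin lists. Coverage was 100%, 97.9% and 95.4% without auxin and 32.4%, 85.2% and 91.9% with auxin. The groups did not overlap, but the highest auxin list and the lowest list without auxin were close. The means were 97.7 ± 2.32% and 69.8 ± 32.6% (SD, n = 3 each), and the difference of -27.9 percentage points became -9.17 without the first auxin list. The first of the 3 parts of the gene was covered at 86.1% to 100% without auxin and at 43.8%, 55.6% and 75.8% with auxin, and these values did not overlap. In the first auxin list 2 islands were called, at 360 to 652 bp and 951 to 1279 bp. Summits lay at 400, 408 and 510 bp without auxin, and in each auxin list 1 summit lay at 452 to 531 bp. SSA2 and SSA1 are near-identical copies, and reads from shared stretches can be placed at either gene.

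SSA1 (YAL005C, chromosome I, 139503 to 141431), the other Hsp70 gene of unstressed cells, lies next to the tRNA gene TRN1, which starts 249 bp past its end. Coverage of its coding span was 79.0%, 82.4% and 99.3% without auxin and 50.8%, 68.8% and 81.4% with auxin. The groups overlapped, at 86.9 ± 10.9% and 67.0 ± 15.4% (SD, n = 3 each), and the exact permutation test gave p = 0.2. The difference of -19.9 percentage points became -11.8 without the first auxin list. Each of the 6 lists held a peak with its summit inside TRN1, at 2219 to 2255 bp from the start codon of SSA1, and in 5 of 6 lists the peak with that summit extended into SSA1. Without peaks at tRNA genes the coverage of SSA1 was 0% in each list without auxin and 37.6%, 21.2% and 0% with auxin, a difference of 19.6 points in the opposite direction. This setting removes whole peaks, so a peak joined to TRN1 takes its part over SSA1 with it. In the first auxin list it also removed a peak with its summit inside SSA1, at 1823 bp. The change of sign thus depends on where peaks were split and does not show a gain. The first auxin list resolved the domain into separate peaks, from 558 to 1283 bp, from 1676 to 1946 bp and, over TRN1, from 2028 to 2413 bp. How much of the coverage of SSA1 belongs to the tRNA gene was not tested.

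**Figure D3:**
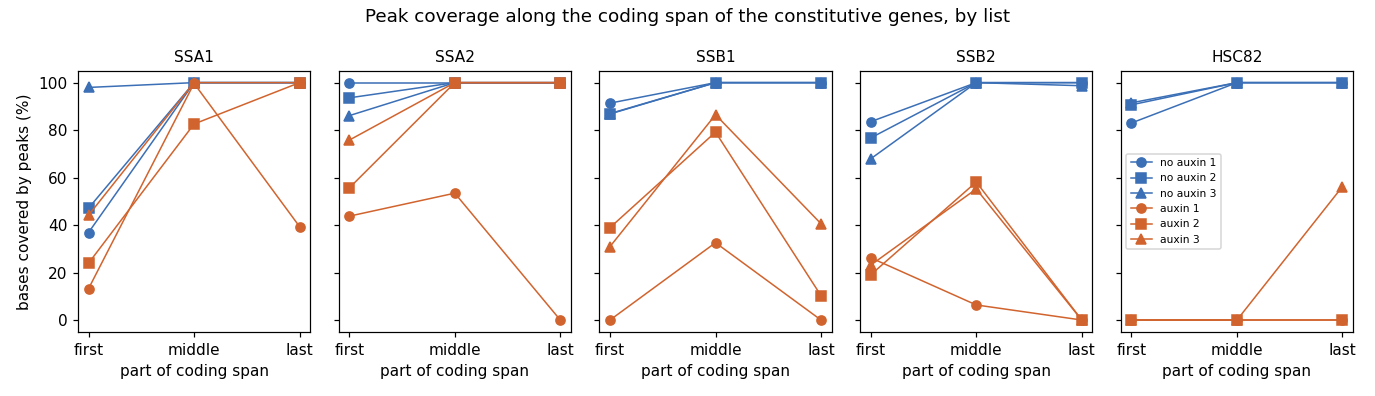
Percent of bases under peaks (vertical axis) in the first, middle and last of 3 equal parts of the coding span (horizontal axis) of the 5 constitutive genes, 1 line per list, blue without and orange with auxin. The middle and last parts are at or near 100% in each list without auxin, and the last part of SSB2 is at 0% in each auxin list.

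Across the 5 constitutive genes the middle part was covered at 100% in each list without auxin, the last part at 99.9 ± 0.150% and the first part at 81.3 ± 4.11% (SD, n = 3 each). With auxin the middle part had the highest mean, at 56.9 ± 16.2%, against 26.3 ± 9.14% for the first and 36.4 ± 26.2% for the last part (SD, n = 3 each). Leaving out SSA1, the last part had 0%, 27.6% and 49.2% with auxin and the middle part 23.1%, 59.3% and 60.4%. This mean was thus higher in the middle than in the last part in each auxin list, but not each gene followed it. At HSC82 the middle part was at 0% in each auxin list and the last part at 56.2% in the third. At SSA2 both parts were at 100% in auxin lists 2 and 3. The 15 coding peaks without auxin, 1 per gene and list, had a median width of 2026 bp. The 18 with auxin had a median width of 431 bp and ranged from 200 to 2156 bp. Over all coding genes the 3 parts had mean coverages of 8.91%, 13.0% and 14.3% without auxin and 5.47%, 6.04% and 5.41% with auxin.

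The stress-induced Hsp70 genes SSA3 and SSA4 had no peak over most of their coding span in any list. SSA3 (YBL075C, chromosome II, 84499 to 86448) had coverage of 0%, 0% and 11.7% without auxin and of 10.6%, 10.9% and 10.6% with auxin. The groups overlapped (exact permutation p = 0.4). Without the third list lacking auxin, the only 1 of its group with a coding peak, the difference went from 6.77 to 10.7 percentage points. Leaving out the list that overlaps separates the groups by construction. The 4 peaks were nearly superimposed at the end of the gene, were 237 to 261 bp wide, and had summits at 1849 to 1870 bp of a span of 1950 bp. A narrow peak over the 3′ end of SSA3 was thus called in all 3 auxin lists and in 1 list without auxin. SSA4 (YER103W, chromosome V, 364589 to 366517) had no coding peak without auxin, and 1 auxin list, the first, held a peak from 1720 to 1945 bp, which covered 10.8% of the gene. Its summit at 1848 bp, of a span of 1929 bp, fell at nearly the same distance from the start codon as those in its relative SSA3. This was a single weak peak, with a −log10 q of 7.66 and a fold above 28.3% of its list. With a −log10 q of at least 10 it was gone. Whether the 2 genes share reads there was not tested. For SSA4 the exact permutation test gave p = 1.

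SSE1 (YPL106C, chromosome XVI, 350194 to 352275) encodes an Hsp110 that serves the Hsp70s as a nucleotide exchange factor. Its coding span had coverage of 64.3%, 64.8% and 0% without auxin and 0% in each auxin list. The third list without auxin was thus at 0% like the auxin lists, and the exact permutation test gave p = 0.4. The 2 lists with peaks held 2 and 3 of them, 293 to 821 bp wide, with −log10 q of 5.30 to 9.48. These peaks were weak, and with 964 peaks in every list, or with a −log10 q of at least 10, SSE1 had a difference of 0.

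In each list, fewer of the 9 genes had a peak in the 500 bp before the start codon than over the coding span. No peak was called there in any list at 5 of the 9 genes (SSB1, SSB2, HSC82, HSP82 and SSE1), compared with 74.2% of all 6002 coding genes. A lack of upstream peaks was thus not particular to these genes. Coverage of this window was lower in each auxin list at 0 of 9 genes (2.87% of all coding genes) and higher in each auxin list at 0 of 9 (4.38%). The average over the constitutive genes was 8.23 ± 7.02% in lists without auxin and 17.4 ± 6.69% in those with it (SD, n = 3 each), and over the stress-induced genes 10.8 ± 9.31% and 5.73 ± 9.93% (SD, n = 3 each). SSA1 carried the constitutive averages, which without it were 0.117 ± 0.202% and 3.62 ± 6.26% (SD, n = 3 each). The lists of the 2 groups overlapped in both classes, and with 964 peaks in every list the difference of the stress-induced class went from -5.02 to 5.73 percentage points. The corresponding means over all coding genes were 5.90 ± 0.230% and 7.58 ± 2.43% (SD, n = 3 each).

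**Figure D4:**
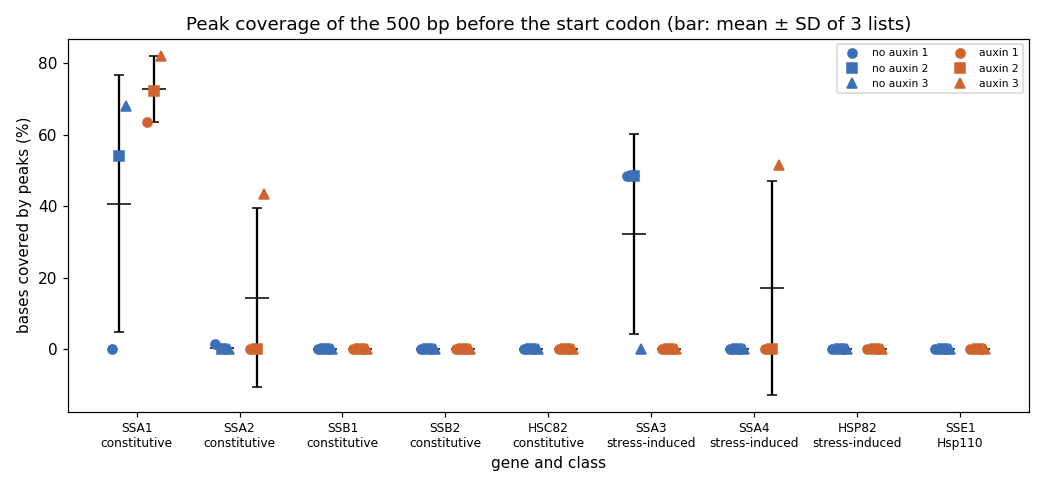
Percent of the 500 bp before the start codon under peaks (vertical axis) for each gene (horizontal axis), 1 point per list, drawn as in the plot of coding coverage. SSA1 has a peak in 5 of 6 lists, and SSB1, SSB2, HSC82, HSP82 and SSE1 are at 0% in all 6.

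SSA1 was the exception among the constitutive genes. Its upstream window, which holds no other annotated gene, had coverage of 0%, 54.0% and 68.0% without auxin and of 63.6%, 72.2% and 82.0% with auxin. The groups overlapped (exact permutation p = 0.2), and summits in the 5 lists with a peak lay at -358 to -320 bp from the start codon. The peaks were separate from the one over the gene. Under the authors' fold, the upstream peak stood above 51.2% and 41.3% of its list in lists 2 and 3 without auxin and above 23.2%, 67.4% and 83.7% in the 3 auxin lists. The upstream peak of SSA1 was thus called in 3 of 3 lists with and in 2 of 3 without auxin.

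Other upstream peaks were found in part of the lists. At SSA3 the first and second lists without auxin held a peak of 242 bp each, with summits at -240 and -251 bp, and no auxin list did. These peaks also touched the end of AAR2, the neighbour on that side, which takes up 227 bp of the window. At SSA4 the third auxin list held a peak from -382 to -125 bp, in a window free of other genes. At SSA2 the third auxin list held one from -331 to -115 bp. SSA2 also had 1.40% of this window covered in the first list without auxin. The difference at SSA3, -32.3 percentage points, went to 0 with 964 peaks in every list and with a −log10 q of at least 10. These upstream peaks were thus each called in 1 or 2 of 3 lists. The exact permutation test, which cannot go below 0.1 in this design, gave p = 0.4 for SSA3 and 1 for SSA4 and SSA2.

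The 500 bp after the coding span were examined because the broad peaks ended there. The choice of this window thus rests on the peaks without auxin, most of which are already counted over the coding span. The counts below describe the ends of those peaks and are not a separate finding. Coverage was lower in each auxin list at 3 of the 9 genes (SSA2, SSB1 and HSC82), against 8.25% of all coding genes, and higher in each auxin list at 0 (1.78%). At HSC82 it was 50.8%, 19.6% and 46.8% without auxin and 0% in each auxin list. At SSB2 it was 64.0%, 65.6% and 0% without and 0% with auxin, so that the third list without auxin was again at 0%. At SSA1, where this window holds TRN1, it was 99.6% to 100% without and 80.8% to 100% with auxin.

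The constitutive genes were also compared with other genes of like coverage. Besides them, 292 coding genes had a mean coverage without auxin at or above that of SSA1, the lowest of the 5. The mean coverage of these genes with auxin had a median of 49.3% and quartiles of 9.84% and 75.3%, and 59 of them had no coverage with auxin. As they were chosen by their coverage without auxin, their lower values with auxin are not a finding. SSA1 and SSA2 lay above 65.1% and 69.5% of these genes, SSB1 and SSB2 above 40.8% and 31.5%, and HSC82 above 23.3%. SSA1 and SSA2 were thus above the median of these genes and SSB1, SSB2 and HSC82 below it. Of the 5, HSC82 was the one below the lower quartile. The 292 genes had a median length of 1096.5 bp, whereas the 5 constitutive genes were 1842 to 2118 bp long. A peak of a given width covers a larger percent of a shorter gene, and the ranks were not adjusted for length. The rank of SSA1 also includes peaks with their summit in TRN1.

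**Figure D5:**
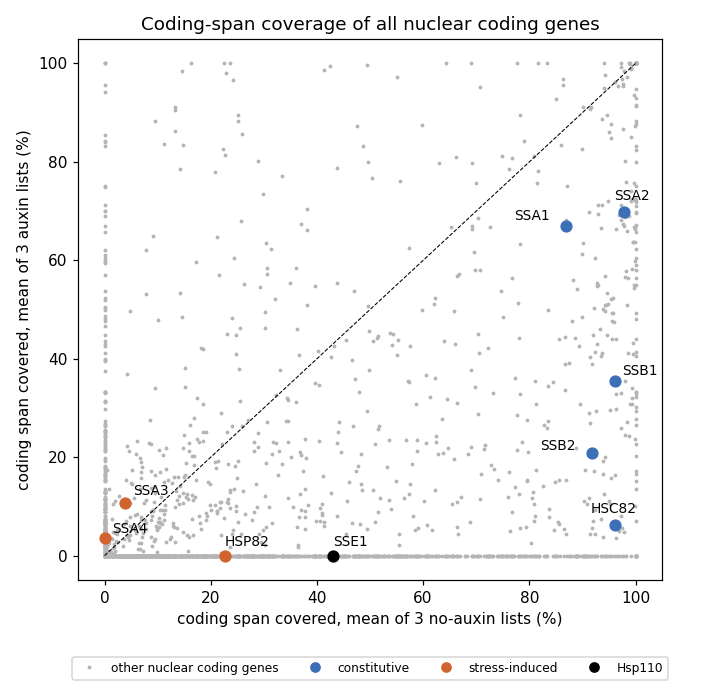
Mean coding-span coverage with auxin (vertical axis, percent) against that without auxin (horizontal axis, percent) for the 6002 nuclear coding genes, each value a mean of 3 lists. Grey points are other genes, blue the constitutive, orange the stress-induced members and black SSE1, and the dashed line marks equal coverage; SSA1 and SSA2 lie nearest to it among the blue points.

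The partners of these chaperones were taken from 5 lists of 37 genes in all, each found in the table. Coding coverage was lower in each auxin list at 7 of the 37 and higher in each at 0, and the groups overlapped at 30, of which 23 had no coding peak in any list. Over all 6002 coding genes, 9.98% were lower in each auxin list, 1.62% were higher and 66.9% had no coding peak. The median difference was 0, as over all coding genes. Of 10 Hsp70 cochaperones, 3 were lower in each auxin list. These were the J-domain genes YDJ1 (86.6 ± 2.14% without and 5.47 ± 9.48% with auxin; SD, n = 3 each), ZUO1 (57.6 ± 24.1% and 14.6 ± 12.6%) and SIS1 (78.0 ± 2.43% and 44.2 ± 5.16%). The groups overlapped at the other 7, of which 6 had no coding peak in any list. ZUO1 encodes a ribosomal partner of the Ssb proteins.

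Of 11 Hsp90 cochaperones, STI1, which links Hsp70 to Hsp90, was lower in each auxin list (60.2 ± 18.9% and 11.0 ± 9.57%; SD, n = 3 each), and 7 had no coding peak. HCH1 and AHA1, both related to activation of the Hsp90 ATPase, overlapped between groups, with means of 56.6 ± 49.1% and 0% at HCH1 and of 30.3 ± 13.4% and 49.5 ± 18.6% at AHA1 (SD, n = 3 each). AHA1 was the gene of this list with a higher mean under auxin. Of 5 organelle Hsp70 genes, KAR2, of the endoplasmic reticulum, and SSC1, of mitochondria, were lower in each auxin list, at 84.7 ± 18.9% and 5.11 ± 8.85% and at 98.3 ± 2.01% and 27.1 ± 29.3% (SD, n = 3 each), and the other 3, among them ECM10, had no coding peak.

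Of 8 other heat shock genes, HSP60, the mitochondrial chaperonin, was lower in each auxin list (94.0 ± 1.40% and 12.4 ± 21.5%; SD, n = 3 each). HSP104, the heat-induced disaggregase, had coverage of 17.7%, 0% and 21.6% without auxin and 0% in each auxin list, and the other 6, HSP10 among them, had no coding peak. Of the 3 transcription factor genes HSF1, MSN2 and MSN4, all overlapped between groups. HSF1 was covered at 8.71 ± 8.63% without and 7.15 ± 5.76% with auxin and MSN2 at 3.78 ± 6.55% and 0% (SD, n = 3 each), and MSN4 had no coding peak. The stress-induced genes HSP26, HSP12 and HSP42 were among those without a coding peak.

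The 2 coding genes outside these lists whose coverage over the 6 lists lay nearest to the mean of the 9 genes were RPS6A and YDR034C-D, at Euclidean distances of 19.7 and 23.6 percentage points over 6 lists. The mean itself was 60.8%, 60.6% and 58.0% without auxin and 14.0%, 25.9% and 31.3% with auxin. RPS6A had 63.3%, 63.8% and 59.8% without and 0%, 20.8% and 19.2% with auxin.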

How the data were processed

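Peak lists of 6 Myc immunoprecipitates (3 with and 3 without auxin) were used as the authors deposited them, 1 list per replicate. Per the submitters' processing notes, Bowtie2 2.4.2, MACS2 2.1.1.20160309 and the sacCer3 build were used; no source used here gives the threshold or control. Per the labels' protocols, 3 immunoprecipitations were combined per replicate. The deposited columns hold positions and summits in base pairs, a fold enrichment ratio, −log10 p and −log10 q values and a whole-number score; fold and −log10 values only describe, rank or filter peaks within a list. Depth is not known from these lists and no interval was computed. Calibration does not enter any value. No 2 lists shared a peak with equal start and end (0 peaks).

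Genes and coordinates came from a RefSeq table of R64, the sequence of sacCer3, with strands read from systematic names. Coverage is the percent of bases under peaks in the coding span (annotated span, introns included) or in the 500 bp before or after it; positions count from 0 at the first base of the start codon. A peak was placed at a gene by an overlap of 1 bp. The difference of group means was tested for all 6002 nuclear coding genes by an exact two-sided permutation test of 20 assignments, with Benjamini-Hochberg adjustment over them; the threshold was 0.05. A p-value is the share of the 20 assignments whose absolute difference of means was at least the observed one. It rests on these 3 cultures a group alone. The code was tested on simulated data. Python 3.11.15, numpy 2.4.6 and scipy 1.17.1 were used.

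All 9 members are named. Partners named are up to 3 per list with the largest absolute difference of mean coverage, and neighbours sharing a peak; genes given only as having no peak, the 3 parts of the coding span, the window after the gene and the comparison with genes of like coverage were chosen after values were seen. The members and lists were chosen with earlier results of these data known. Alternatives were list length, a −log10 q of at least 5 or 10, 100 bp either side of the summit, peaks within 250 bp of tRNA genes left out, upstream windows of 250 and 1000 bp, overlap of 100 bp or a summit in the gene, each list left out, and a replicate block. A planned search for heat shock elements in promoters was not run, since no sequence was used here. Of the 5 genes most alike in coverage that the naming rule gives, the 2 nearest are named and the rest are not reported here.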

Additional observations from a re-analysis of the deposited data

How the results depend on the processing

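All differences are in percentage points of coverage, auxin minus no auxin, and the depth behind the lists limits all of them in an unknown way. With each list left out in turn, the coding difference ranged from -39.8 to -31.2 over the 9 genes, -61.0 to -44.4 over the constitutive and -5.82 to -0.867 over the stress-induced genes, the upstream difference from 5.21 to 11.9 and from -10.8 to -2.16, and the number of genes lower in each auxin list from 5 to 6. With a −log10 q of at least 10 the constitutive coding difference was -72.5. With 964 peaks in every list the stress-induced differences turned to 0.774 (coding) and 5.73 (upstream), and with a −log10 q of at least 10 the latter was also 5.73. With each peak reduced to 100 bp on either side of its summit, which removes differences in width by construction, the difference was -0.371 over the 9 genes, 2.97 over the constitutive genes, 10.4 at SSA1, 3.49 at SSA2 and 7.28 at SSB1, and 1 gene was lower in each auxin list (at SSA1 the summits without auxin lie in the tRNA gene). Without peaks at tRNA genes the difference at SSA1 was 19.6, but this setting removes whole peaks, including those joined to TRN1. An upstream window of 1000 bp gave 1.87 for the constitutive genes and -2.27 at SSA4; with each list left out, SSA2 upstream ranged from -0.467 to 21.2. The cause of the remaining changes was not tested. Of 151 results for single genes under these alternatives, leaving out the block and differences of 0 to begin with, 137 kept their direction, 6 reversed and 8 went to 0.

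The correlation of deviations from group means over 1988 coding genes was -0.000689, 0.00703 and 0.104 for lists with equal replicate numbers. For lists with unequal numbers it ranged from -0.115 to 0.115. Whether equal replicate numbers mark paired cultures was not tested. With a replicate block (paired sign-flip test), the difference was -53.9 for the constitutive, -4.08 for the stress-induced and -36.1 for all 9 genes, 6 genes were lower with auxin in each pair, and the smallest exact p possible was 0.25, as at HSC82.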
